A study of Mus musculus with 2 samples.

Results

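Cells in which the pericyte gene Rgs5 and endothelial genes were read together were examined among αSMA-labeled cells of the periosteum. Wells, each sorted to hold 1 cell, were chosen by their own UMI counts, those with at least 1 transcript molecule (UMI) of Rgs5 and at least 1 UMI summed over 11 endothelial genes, namely Pecam1, Cdh5, Kdr, Eng, Emcn, Egfl7, Flt1, Tie1, Cldn5, Esam and Plvap. Of 503 wells with 200 or more detected genes, 60 met this rule, 14 at 2 days, 25 at 6 weeks and 21 at 13 weeks after tamoxifen. They are called Rgs5-endothelial wells here, and they were compared with the 58 Rgs5 wells without a UMI of these 11 genes and with the 385 wells without an Rgs5 UMI.

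Single Tomato+ cells of the periosteum, the sheath around bone, were index-sorted into wells from αSMACreER/Ai9 mice. In these mice the promoter of alpha smooth muscle actin drives a Cre recombinase that tamoxifen activates, and cells in which it was active, with their descendants, make the red Tomato protein. The single-cell sort used Tomato and a dead-cell dye with no antibody, so that Tomato+ cells of endothelial or blood type were not excluded. Each time point was 1 pool of 2 to 3 female mice that had received 2 doses of tamoxifen at 75 mg/kg. The 2-day and 6-week mice also carried Col2.3GFP and were 10.3 and 14.4 weeks old, with chase times of 2 and 43 days. The 13-week mice carried H2B-GFP in place of Col2.3GFP, had received doxycycline for 5 weeks, were 20.1 weeks old and had a chase of 96 days. Effects of chase cannot be told apart from those of age, strain and doxycycline, and the 6-week cells were on a plate of their own. In the kept wells 171209, 156763 and 117824 UMIs were read for the 2-day, 6-week and 13-week pools. The plates shared 216 barcodes, and all 216 marked the same well position on both plates.

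Blood capillaries are tubes of endothelial cells wrapped by pericytes, and the 2 cell types share a basement membrane. Pericytes are known for Rgs5, a regulator of G protein signaling, and for the receptor Pdgfrb, through which endothelial PDGF-B recruits them. Capillary endothelial cells of muscle and fat take up fatty acids through Cd36, Fabp4 and Gpihbp1, the last of which anchors lipoprotein lipase to the vessel lumen.

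The genes of the rule describe the choice and were not tested. The 60 wells held 388 Rgs5 UMIs, with a median of 4 and a highest value of 72 in a well, and 13 wells had exactly 1. Rgs5 (chr1:169655501-169695813 on the plus strand, GENCODE M21 on GRCm38) reached 68.1, 66.9 and 70.6 UMIs per 10000 at 2 days, 6 weeks and 13 weeks. They held 316 UMIs of the 11 endothelial genes. Flt1, a VEGF receptor, gave 76 of these UMIs in 33 wells, and Egfl7, a secreted endothelial protein, gave 57 in 34 wells. The junction proteins Pecam1, Cdh5 and Esam had 45, 35 and 35 UMIs in 20, 22 and 25 wells, and the VEGF receptor Kdr had 31 in 19 wells. The endothelial TGF-β co-receptor Eng had 15 UMIs, while Emcn and Tie1 had 7 each and Cldn5 and Plvap 4 each. More than 1 of the 11 genes was seen in 42 of the 60 wells. At the edge of the rule, 17 wells had exactly 1 endothelial UMI, and 22 wells had 5 or more, up to 28.

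**Figure D1:**
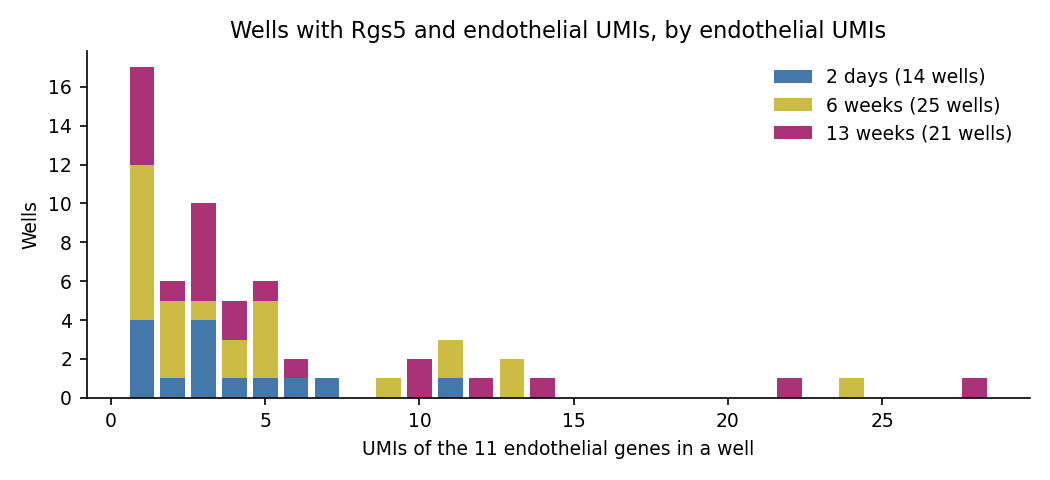
Number of Rgs5-endothelial wells (vertical axis) by the UMIs of the 11 endothelial genes in the well (horizontal axis), with bars stacked by time point. The 17 wells with a single endothelial UMI form the tallest bar, all 3 time points reach beyond 10 UMIs, and 1 well at 13 weeks has 28.

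The share of Rgs5-endothelial wells was 7.73% at 2 days (exact Clopper-Pearson 95% interval 4.29 to 12.6), 13.2% at 6 weeks (8.75 to 18.9) and 15.8% at 13 weeks (10.05 to 23.1), and 11.9% over all (9.23 to 15.1). On the plate that held both, 13 weeks was 8.05 percentage points above 2 days, with an interval of 0.505 to 16.2 points, and 6 weeks was 5.49 points above 2 days, with an interval of -1.15 to 12.1. These intervals cover counting error only, and with 1 pool per time point no test between time points was possible. Among the 118 Rgs5 wells, 40.0% had an endothelial UMI at 2 days, 55.6% at 6 weeks and 55.3% at 13 weeks. Among wells without Rgs5 the same shares were 5.48%, 7.64% and 24.2%, highest at 13 weeks. With every well thinned to 300 UMIs, the shares of Rgs5 wells were 43.5%, 32.4% and 48.0%, so that 6 weeks went from above 2 days to below it, and at 500 UMIs they were 37.5%, 66.7% and 61.9%. No order of the time points is read from these shares.

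Over all time points, 50.8% of Rgs5 wells (41.5 to 60.2) and 10.9% of wells without Rgs5 (7.98 to 14.5) had an endothelial UMI. The median depth was 712 UMIs in Rgs5-endothelial wells, 506 in the other Rgs5 wells and 760 in wells without Rgs5. When each well was thinned to 300 UMIs before the rule was applied, the shares were 40.0% (29.5 to 51.2) and 7.04% (4.73 to 10.01), and 34 wells met the rule. Wells with 2 or more endothelial UMIs numbered 50, and 43 of them also had Rgs5, which was 10 of 10 at 2 days, 17 of 20 at 6 weeks and 16 of 20 at 13 weeks.

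The rule was then repeated on separate molecules, by drawing 50% of the UMIs of every well at random and choosing wells on these only. In 20 such draws, a median of 74.7% of the wells chosen (range 69.2 to 87.8) had an endothelial UMI among the UMIs not drawn. The same share was 18.3% (12.7 to 23.8) in Rgs5 wells without an endothelial UMI among those drawn and 7.39% (5.20 to 9.18) in wells without Rgs5. An Rgs5 UMI recurred in 82.9% of the chosen wells (70.3 to 87.5).

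Genes outside the rule were tested on UMIs summed by class of well and pool of mice, 9 sums in all, with edgeR's quasi-likelihood test and the pool as a block. Since genes that accompany the 12 rule genes were counted in the same wells, the p-values ask only whether a difference exceeded the spread between these sums. Against wells without Rgs5, 92 of 310 genes tested were called at a Benjamini-Hochberg adjusted p under 0.05 (29.7% of those tested), 40 higher (12.9%) and 52 lower (16.8%). Against the other Rgs5 wells 38 were called (12.3%), 16 higher (5.16%) and 22 lower (7.1%). Both comparisons use the same Rgs5-endothelial wells. The median log2 difference over all genes tested was -0.11 and -0.03.

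The comparison with the other Rgs5 wells, which held 36194 UMIs against 352948 in wells without Rgs5, depended on single pools. Without the 13-week pool 3 of its 38 calls were left, Ly6c1 higher and Apod and Thbs4 lower, and without the 6-week pool 19 genes were called. Every other call against the other Rgs5 wells given here was therefore lost without the 13-week pool. Among wells with 2 or more Rgs5 UMIs, a limit added after the data were seen, 2 genes were called between the Rgs5 classes, Fabp4 (log2 difference 2.10) and Ly6c1 (3.51). Against wells without Rgs5, 24 genes were higher without the 13-week pool in place of 40.

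Endothelial genes that the rule did not use were high in the Rgs5-endothelial wells at every time point. A list of 29 such genes reached 263, 255 and 340.3 UMIs per 10000 at 2 days, 6 weeks and 13 weeks. It reached 34.4, 36.0 and 84.5 in the other Rgs5 wells and 13.6, 19.2 and 33.7 in wells without Rgs5, so that the summed levels of the classes did not overlap. Fabp4 alone gave 102 of the list's 185 UMIs in the other Rgs5 wells, and its part in the Rgs5-endothelial wells is given below. In single Rgs5-endothelial wells the list ranged from 0 to 734 per 10000, with a median of 272, and in the other Rgs5 wells from 0 to 822, with a median of 19.1, so that single wells of the 2 classes overlapped. Only 8 of the 29 genes had enough UMIs to be tested. All 8 were higher than in wells without Rgs5 (median log2 difference 4.44) and 7 of 8 were higher than in the other Rgs5 wells (median 2.65). A gene this low can enter the test through the class in which it is high, so these counts are a description. The filter asked for 4.98 UMIs per 10000 in 3 of the 9 sums, and 63 of the 310 genes tested reached it in fewer than 3 sums outside the Rgs5-endothelial wells. Aqp1, Cav1, Gpihbp1, Gpr116, Ly6e, Ptprb, Sdpr and Tm4sf1 reached it in all 3 sums of the Rgs5-endothelial wells and in 0 of the other 6. Cd36 and Cxcl12 reached it in 2 of the other 6 sums and Epas1 in 1. Pdgfrb and Kcnj8 reached it in sums of Rgs5 wells alone. The filter largely fixed the direction of these differences, which are given as sizes without p-values, for Pdgfrb and Kcnj8 against wells without Rgs5 only. In the same way, genes near 0 in the Rgs5-endothelial wells entered the test through the other classes.

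Fabp4 (chr3:10204088-10208576, minus strand), the fatty acid carrier of capillary endothelium and fat cells, had 746 UMIs in 51 of the 60 wells. Its level was 125, 113 and 159.7 UMIs per 10000 at 2 days, 6 weeks and 13 weeks, against 16.1, 18.5 and 51.2 in the other Rgs5 wells and 0.613, 2.91 and 10.1 in wells without Rgs5. No sum of one class reached the range of another. The fitted log2 difference was 5.46 ± 0.52 (SE, 3 pools) against wells without Rgs5 (edgeR adjusted p = 1.04e-05) and 2.53 ± 0.47 against the other Rgs5 wells (adjusted p = 0.00523). At 300 UMIs a well, 77.2% of the Rgs5-endothelial wells had a Fabp4 UMI, against 16.4% and 3.77%.

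Cd36, the fatty acid translocase, was at 20.5, 17.8 and 26.9 UMIs per 10000 in the Rgs5-endothelial wells and at 5.13, 4.62 and 11.1 in the other Rgs5 wells. Wells without Rgs5 held 0.204, 0.333 and 2.21. The sums did not overlap, and the log2 difference was 4.86 ± 0.38 from wells without Rgs5 and 1.76 ± 0.41 from the other Rgs5 wells.

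Gpihbp1 (chr15:75596628-75599481, plus strand) gave 81 UMIs in 35 of the 60 Rgs5-endothelial wells, 16.8, 12.4 and 15.4 per 10000 by time point, and none in the 58 other Rgs5 wells. With a floor of 3 counts over the group, it was at least 17.2-fold higher in the Rgs5-endothelial wells than in these. Wells without Rgs5 had 11 Gpihbp1 UMIs in 8 of 385 wells, at 0, 0.666 and 0.349 per 10000. Lpl, the lipase that Gpihbp1 carries, was too low to be tested, with 17 UMIs in 12 Rgs5-endothelial wells. Tcf15, a transcription factor of this uptake program, had 7 UMIs in 7 Rgs5-endothelial wells, 1 in the other Rgs5 wells and 0 in wells without Rgs5. Pparg and Slc27a3 had 1 and 0 UMIs in the 60 wells. Of the 13 genes of the fatty acid uptake list 3 were tested, and these were Fabp4, Cd36 and Gpihbp1.

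Ly6c1, a surface protein of capillary endothelium and some blood cells, differed in the order of the classes from Fabp4 and Cd36. It was at 32.7, 19.7 and 24.4 UMIs per 10000 in the Rgs5-endothelial wells, at 1.46, 0.924 and 3.41 in the other Rgs5 wells and at 5.45, 6.49 and 7.33 in wells without Rgs5. The other Rgs5 wells were thus the lowest class in all 3 pools. The log2 difference was 3.73 ± 0.38 against them (edgeR adjusted p = 9.68e-05) and 2.01 ± 0.20 against wells without Rgs5 (adjusted p = 1.10e-05). Reads of Ly6c1 could be shared with its near copy Ly6c2.

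The water channel Aqp1 was at 13.1, 9.67 and 15.9 UMIs per 10000 in the Rgs5-endothelial wells, 0.732, 1.85 and 2.56 in the other Rgs5 wells and 0.613, 1.33 and 1.74 in wells without Rgs5. Its log2 differences were 3.44 ± 0.36 and 2.98 ± 0.53 against wells without Rgs5 and the other Rgs5 wells. The caveolar coat genes Cav1 and Sdpr differed by 3.07 and 3.43 on the log2 scale from wells without Rgs5 and by 2.77 and 2.09 from the other Rgs5 wells. Ptprb, an endothelial phosphatase that acts on the receptor Tek, differed by 5.14 and 2.52, and the surface proteins Tm4sf1 and Ly6e by 2.41 and 2.02 against wells without Rgs5 and 2.48 and 2.51 against the other Rgs5 wells. The adhesion receptor Gpr116 differed by 4.01 ± 0.57 from wells without Rgs5, and its difference of 1.85 ± 0.68 from the other Rgs5 wells was not called.

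Many endothelial genes were seen only through a few molecules and were not tested. The junctional protein Icam2 had 16 UMIs in 10 Rgs5-endothelial wells, 0 in the other Rgs5 wells and 1 in wells without Rgs5. Podxl, a surface sialomucin, had 26, 1 and 8 UMIs in the 3 classes, and the matrix protein Mmrn2 17, 0 and 7. The endothelial transcription factors Erg, Sox17 and Sox18 had 10, 7 and 4 UMIs in Rgs5-endothelial wells and none in the other Rgs5 wells. The class without Rgs5 holds several times more wells, which bears on each of these comparisons.

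Among markers of vessel type, the capillary list of 5 genes reached 42.0, 33.7 and 49.8 UMIs per 10000, over all 40.95 against 7.46 in the other Rgs5 wells and 1.81 in wells without Rgs5. Of its 232 UMIs in the 60 wells, Cd36 and Gpihbp1 gave 122 and 81. The arterial list of 7 genes was at 2.80, 11.996 and 9.95, over all 9.53 against 1.66 and 0.878. The venous list of 5 genes was at 0, 4.26 and 2.49, and over all its 2.82 lay below the 3.87 of the other Rgs5 wells and above the 1.47 of wells without Rgs5. The lymphatic list of 6 genes had 10 UMIs in 8 of the 60 wells, 1.77 per 10000 against 0.829 in the other Rgs5 wells and 2.49 in wells without Rgs5. Among its genes, Prox1, the factor that defines lymphatic endothelium, had 0 UMIs in the 60 wells, which allows up to 3 counts of 56654, and the VEGF receptor Flt4 had 4 in 4 wells and none in either of the other classes. Dll4, the arterial and tip-cell Notch ligand, had 7 UMIs in 6 wells and none in either of the other classes.

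**Figure D2:**
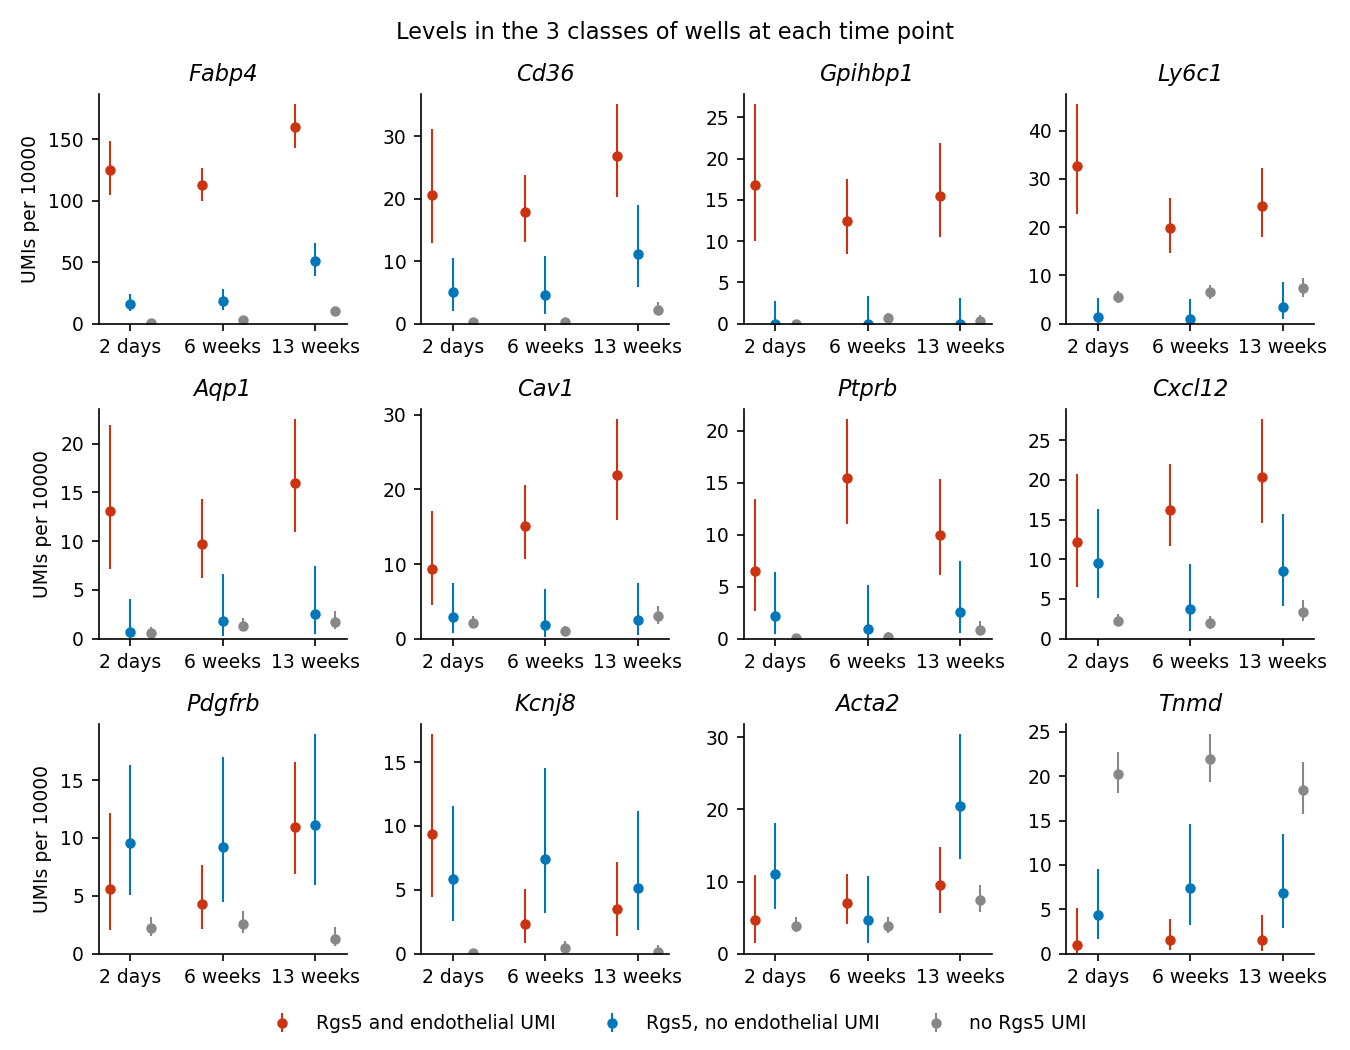
Level of 12 genes outside the rule (UMIs per 10000 over the pooled wells of a class, linear axes from 0) at each time point in the 3 classes of wells, with exact 95% Poisson intervals as bars. The endothelial genes lie highest in Rgs5-endothelial wells in all 3 pools, Pdgfrb and Kcnj8 lie lowest in wells without Rgs5, and Tnmd, a tendon gene, is lowest in Rgs5-endothelial wells.

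The same wells held pericyte transcripts. A list of 20 pericyte genes without Rgs5, 18 of which had a row, was at 47.6, 32.9 and 36.8 UMIs per 10000 at 2 days, 6 weeks and 13 weeks. The other Rgs5 wells were at 52.0, 53.6 and 70.8 and wells without Rgs5 at 8.72, 10.8 and 7.79. These sums, which deep wells dominate, were above every pool without Rgs5 and below every pool of the other Rgs5 wells. The order was not the same well by well, since the 2-day median was 52.9 per 10000 in Rgs5-endothelial wells and 41.2 in the other Rgs5 wells, and at 300 UMIs 10 of 13 and 14 of 20 of these wells had a UMI of the list. At 6 weeks the medians were 24.97 and 39.0, and at 13 weeks 32.9 and 48.3.

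Pdgfrb, the PDGF-B receptor, had 39 UMIs in 24 of the 60 wells, at 5.60, 4.26 and 10.9 per 10000 by time point. It was at 9.52, 9.24 and 11.1 in the other Rgs5 wells and 2.25, 2.58 and 1.28 in wells without Rgs5. The log2 difference was 1.78 ± 0.44 from wells without Rgs5, or 1.04 without the 13-week pool, and -0.44 ± 0.47 from the other Rgs5 wells (edgeR adjusted p = 0.775). At equal depth of 300 UMIs, 24.6% of Rgs5-endothelial wells (14.1 to 37.8), 25.5% of the other Rgs5 wells (14.7 to 39.0) and 6.47% of wells without Rgs5 (4.19 to 9.47) had a Pdgfrb UMI.

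Kcnj8, the pore of a potassium channel of pericytes, gave 23 UMIs in 14 wells, at 9.33, 2.32 and 3.48 per 10000, against 5.86, 7.39 and 5.12 in the other Rgs5 wells. Wells without Rgs5 had 7 Kcnj8 UMIs in 385 wells. The log2 difference from the other Rgs5 wells was -0.41 ± 0.74 (edgeR adjusted p = 0.916). Its channel partner Abcc9 was too low to be tested, at 3.18 UMIs per 10000 in the 60 wells, 3.87 in the other Rgs5 wells and 0.0850 in wells without Rgs5. Notch3, the Notch receptor of mural cells, was at 2.47, 6.35 and 0.680, and Higd1b, a mitochondrial protein enriched in pericytes, at 3.18, 2.76 and 0.255 in the same order. The standard errors of the Pdgfrb and Kcnj8 differences between the Rgs5 classes exceed the differences themselves, which does not show that the levels are equal.

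Of the contractile genes, Myl9, a light chain of smooth muscle myosin, was higher than in wells without Rgs5 (log2 difference 1.68 ± 0.38, edgeR adjusted p = 0.00431), a call lost without the 6-week pool (1.32, adjusted p = 0.0682). Acta2, the gene whose promoter drives the Cre, was at 4.67, 6.97 and 9.45 UMIs per 10000 in Rgs5-endothelial wells, 10.99, 4.62 and 20.5 in the other Rgs5 wells and 3.88, 3.83 and 7.44 in wells without Rgs5. The classes overlapped, and neither difference was called (0.64 ± 0.31, adjusted p = 0.151, and -0.60 ± 0.35, adjusted p = 0.424). Myh11, the myosin heavy chain of mature smooth muscle, had 14 UMIs in 11 of the 60 wells.

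UMIs of the endothelial and the pericyte list were counted in the same wells. At 300 UMIs a well, 54 of 57 Rgs5-endothelial wells had the endothelial list and 36 the pericyte list, and 34 of 57 (59.6%, 45.8 to 72.4) had both, where neither list holds a gene of the rule. The share was 36.4% (23.8 to 50.4) in the other Rgs5 wells and 10.5% (7.58 to 14.1) in wells without Rgs5. A UMI of the pericyte list, with or without the endothelial list, was found in 63.2% of Rgs5-endothelial wells and 67.3% of the other Rgs5 wells. The gap in joint detection between these 2 classes thus goes with the endothelial list, which includes Fabp4. Since endothelial UMIs chose these 2 classes, the gap is tied to the choice and is a description. With all UMIs, 46 of the 60 wells had both, 13 only the endothelial list and 1 only the pericyte list.

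**Figure D3:**
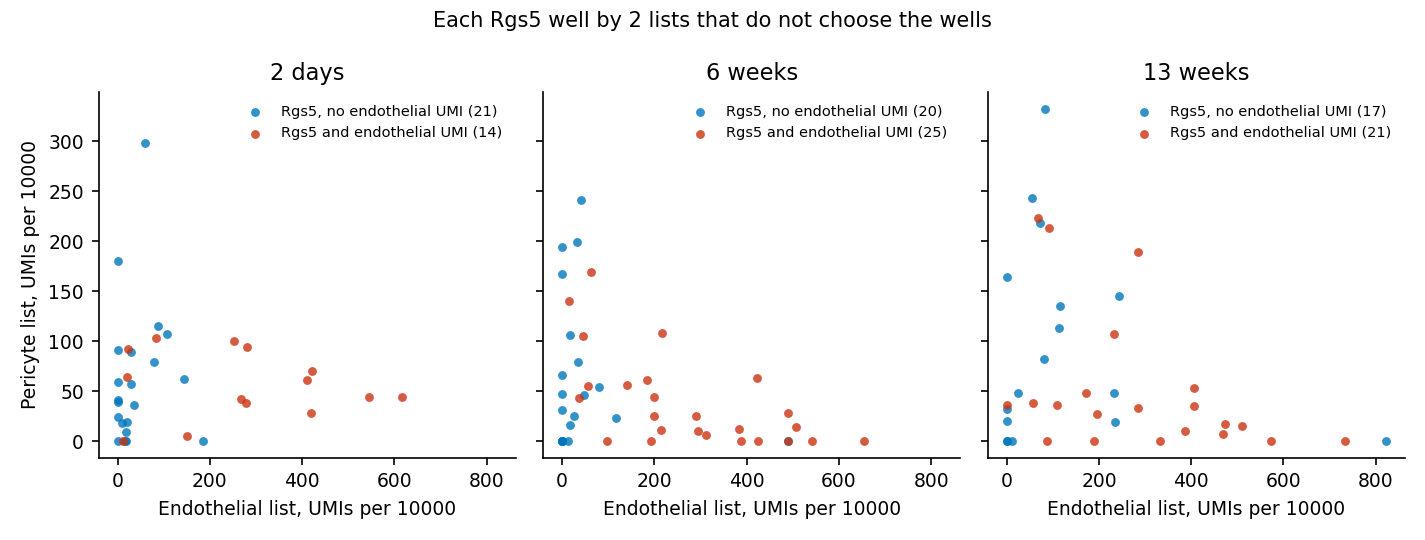
Each Rgs5 well at each time point by the summed level of 29 endothelial genes outside the rule (horizontal axis, UMIs per 10000) and of the pericyte list (vertical axis, UMIs per 10000), in red with and in blue without a UMI of the 11 endothelial genes. Rgs5-endothelial wells spread along the horizontal axis up to 734 with 13 at a pericyte level of 0, and the other Rgs5 wells have a median of 19.1 on that axis but reach 186, 489 and 822 at 2 days, 6 weeks and 13 weeks, so that the classes overlap.

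Wells with more endothelial UMIs held less of the pericyte list. Wells with 1, with 2 to 4 and with 5 or more endothelial UMIs numbered 17, 21 and 22. The endothelial list outside the rule was at 102, 280.1 and 341 UMIs per 10000 in them, against 51.1 in the 58 Rgs5 wells with none. Of these levels, Fabp4 alone made up 41.1, 140 and 152, against 28.2. The pericyte list was at 81.1, 42.4 and 22.3, against 58.6. Wells with a single endothelial UMI, just inside the rule, thus had a pericyte level above that of the wells just outside it. Rgs5 was at 90.3, 113 and 40.2 against 71.0.

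These groups also differed in depth, with a median of 470.0, 655 and 1214.5 UMIs a well, so that a deep well is more likely to fall in the last group. The part of depth in this pattern was not tested. Over the 57 Rgs5-endothelial wells thinned to 300 UMIs, the endothelial and pericyte lists had a Pearson r of -0.37 and a Spearman rho of -0.31, a description over wells that share 3 pools and 1 total. Even with 5 or more endothelial UMIs, 8 of 22 wells had a Pdgfrb UMI and 4 a Kcnj8 UMI. Of the 7 wells without Rgs5 that had 2 or more endothelial UMIs, with a median of 1136 UMIs, 0 had either gene, 1 had Notch3 and 4 had a UMI of the pericyte list, which stood at 9.41 per 10000, and 6 had a UMI of the contractile list at 36.3. Their endothelial list stood at 251 per 10000, and Fabp4, Cd36, Aqp1 and Cxcl12 were at 116, 18.8, 14.8 and 14.8, near the levels of the Rgs5-endothelial wells. Gpihbp1 had 1 UMI in them. With only 7 wells, a count of 0 for Pdgfrb and Kcnj8 does not show that such wells lack these genes.

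**Figure D4:**
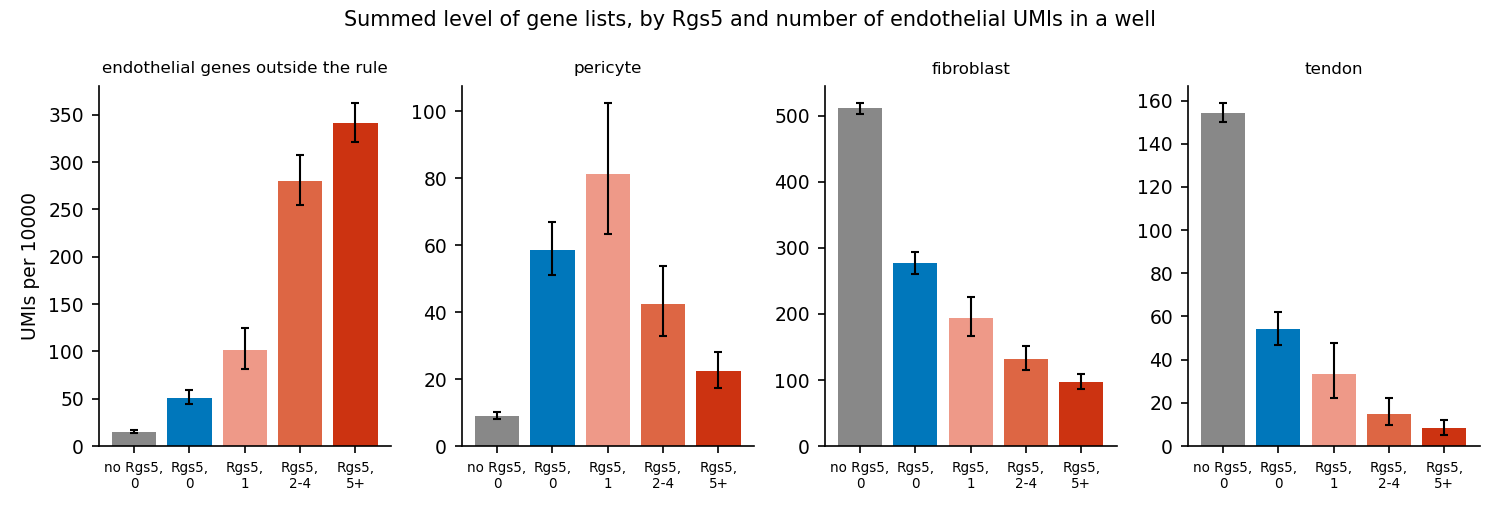
Summed level of 4 gene lists (UMIs per 10000 over pooled wells, linear axes from 0, exact 95% Poisson intervals) in wells without Rgs5 and without endothelial UMIs, and in Rgs5 wells with 0, 1, 2 to 4 and 5 or more endothelial UMIs. The endothelial bars rise to 341, the pericyte bars go from 81.1 at 1 UMI to 22.3 at 5 or more, and the fibroblast and tendon bars fall from left to right.

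Of the genes of vessel signaling, Cxcl12, the chemokine that holds blood progenitors in their niche, was at 12.1, 16.3 and 20.4 UMIs per 10000 in the Rgs5-endothelial wells, 9.52, 3.70 and 8.53 in the other Rgs5 wells and 2.25, 1.92 and 3.37 in wells without Rgs5. Its log2 difference was 2.83 ± 0.28 from wells without Rgs5 and 1.26 ± 0.34 from the other Rgs5 wells. Epas1, a hypoxia-responsive factor of endothelium and pericytes, differed by 3.81 ± 0.39 and 1.15 ± 0.43, and the second was not called. The protease inhibitor Timp3 showed 1.28 ± 0.36 (edgeR adjusted p = 0.0160) and -0.04 ± 0.38 (adjusted p = 0.996), and without the 13-week pool the first was 0.99 (adjusted p = 0.191). Of 22 vessel signaling genes 4 were tested, these 3 and Pdgfrb, and of the 4 only Timp3 reached the level of the filter in wells without Rgs5, so a count of calls says little here. The receptor Nrp1 had 29 UMIs in 18 wells and the lipid receptor S1pr1 19 in 10. The ligand gene Pdgfb had 3 UMIs, and the angiopoietins Angpt1 and Angpt2 had 1 and 2, in the 60 wells.

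Among 13 basement membrane genes, the collagen IV chain Col4a2 was higher than in wells without Rgs5 (0.89 ± 0.24, edgeR adjusted p = 0.0121), Sparc, a matrix glycoprotein, was lower (-1.20 ± 0.28, adjusted p = 0.00523) and Col4a1 was not called (0.89 ± 0.35, adjusted p = 0.0724). None of the 3 was called against the other Rgs5 wells. Col4a2 lost its call without the 2-day pool (0.63, adjusted p = 0.191) or the 6-week pool (0.97, adjusted p = 0.0741), and Sparc lost its call without the 13-week pool (-1.02, adjusted p = 0.125). B2m, the light chain of the class I proteins that present peptides, was at 35.5, 43.3 and 45.8 UMIs per 10000 against 10.99, 20.3 and 22.2 in the other Rgs5 wells, and its log2 differences were 1.55 ± 0.26 and 1.32 ± 0.28 against wells without Rgs5 and the other Rgs5 wells. H2-K1, a heavy chain, differed by 2.05 and 1.87. Its near copy H2-D1, with which it can share reads, was called against wells without Rgs5 (1.17 ± 0.29, edgeR adjusted p = 0.00768) but lay below them at 2 days, and it was not called against the other Rgs5 wells (1.04 ± 0.40, adjusted p = 0.133).

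**Figure D5:**
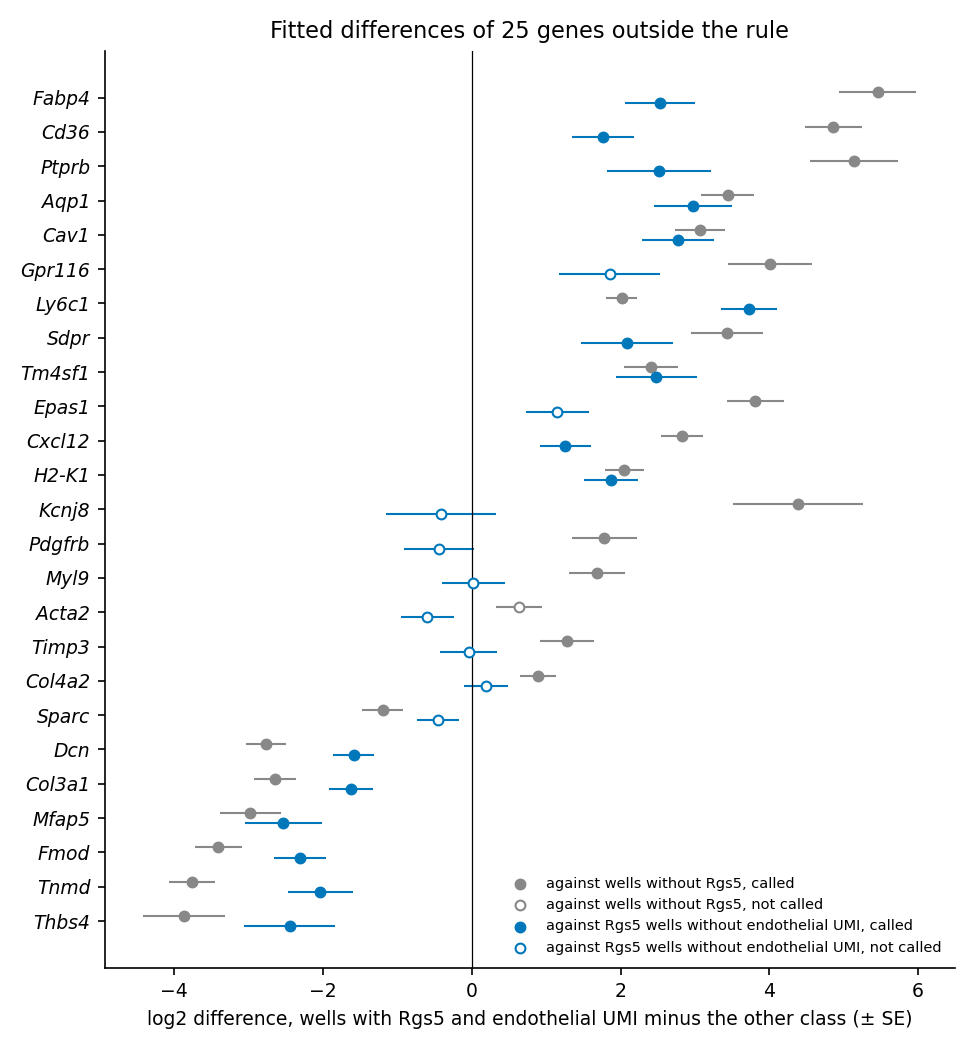
Fitted log2 difference (horizontal axis, ± SE over 9 sums from 3 pools) of 25 genes outside the rule between Rgs5-endothelial wells and wells without Rgs5 (gray) or the other Rgs5 wells (blue), filled where called. Fabp4 stands at 5.46 and 2.53, Pdgfrb, Kcnj8 and Acta2 are open circles in blue, and Tnmd stands at -3.76 and -2.04. Gpihbp1 is left out because the other Rgs5 wells had none, and Aqp1, Cav1, Cd36, Cxcl12, Epas1, Gpr116, Ptprb, Sdpr and Tm4sf1 were tested only through their level in Rgs5-endothelial wells, Pdgfrb and Kcnj8 only through Rgs5 wells. Mfap5, Fmod and Tnmd reached the level of the filter in 0 sums of Rgs5-endothelial wells and Thbs4 in 1. For all these genes the fill is a description.

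Fibrous tissue genes were low. The tendon list, 11 genes led by the tenocyte marker Tnmd, was at 15.9, 9.67 and 18.4 UMIs per 10000 in the Rgs5-endothelial wells, 49.1, 74.9 and 41.0 in the other Rgs5 wells and 146, 163 and 146 in wells without Rgs5. Of 7 tendon genes tested, 7 were lower than in wells without Rgs5, where 16.8% of all genes tested were. Against the other Rgs5 wells 5 were lower, where 7.1% of all genes tested were. Tnmd, Fmod, Cilp, Cpxm2, Ogn and Chad reached the level of the filter in 0 sums of the Rgs5-endothelial wells and Thbs4 in 1. The filter thus largely fixed this direction, so the counts are a description and sizes are given without p-values. Tnmd had 8 UMIs in the 60 wells, at 0.933, 1.55 and 1.49 per 10000 against 20.3, 21.9 and 18.5 in wells without Rgs5 (log2 difference -3.76 ± 0.30). The matrix genes Fmod and Thbs4 differed by -3.41 and -3.87 against these wells.

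The fibroblast list of 13 genes was at 89.6, 196 and 43.8 UMIs per 10000, against 264, 456 and 126 in the other Rgs5 wells and 522, 594 and 305 in wells without Rgs5. Of 8 genes tested, 7 were lower than in wells without Rgs5, where 16.8% of all genes tested were. Against the other Rgs5 wells 6 were lower, where 7.1% of all genes tested were. Of the 8, Lum and Mfap5 reached the level of the filter in 0 sums of the Rgs5-endothelial wells. Dcn, a collagen-binding proteoglycan, was lower by both comparisons (-2.76 ± 0.27 and -1.59 ± 0.28). Ly6a, which encodes Sca1 and marks both progenitors and endothelium, was the exception against wells without Rgs5 (0.07 ± 0.20, edgeR adjusted p = 0.841). Against the other Rgs5 wells, Ly6a (0.94 ± 0.30, edgeR adjusted p = 0.0617) and Col1a1 (-1.04 ± 0.42, adjusted p = 0.161) were not called. Chodl, a satellite cell gene, was at 4 UMIs in the 60 wells and differed by -3.65 and -3.03, and the matrix-binding protein Itih5 was at 1 UMI and differed by -4.34 and -4.67. Among the 10 largest decreases of either comparison were also the matrix genes Cpxm2, Cilp, Mfap5 and Fn1, with log2 differences from -3.55 to -2.96 against wells without Rgs5. Smoc2, a matrix protein, Apod, a lipid carrier, Lrp1, an endocytic receptor, and Gsn, an actin-severing protein, differed by -3.28, -3.01, -2.52 and -2.09 from the other Rgs5 wells. Chodl, Itih5, Cpxm2, Cilp, Mfap5, Fn1, Smoc2, Apod and Lrp1 reached the level of the filter in 0 sums of the Rgs5-endothelial wells, so their direction was largely fixed. Igfbp6, which binds insulin-like growth factors, was lower than in wells without Rgs5 (-2.93 ± 0.51), and its difference of -0.25 ± 0.90 from the other Rgs5 wells was not called (edgeR adjusted p = 0.971).

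Genes of other cell types were read at different levels. The osteoblast list, 10 genes of bone-forming cells, was at 2.80, 26.7 and 5.47 UMIs per 10000 in the Rgs5-endothelial wells, and at 6 weeks 23 of 25 wells had a UMI of it. At that time point it stood at 63.8 in the other Rgs5 wells, with a UMI in 20 of 20, and at 37.2 in wells without Rgs5, with a UMI in 132 of 144, so that nearly all wells of the 6-week plate held it in every class. The part of this plate-wide signal in the results was not tested. The immune list was at 0, 1.55 and 0.498 UMIs per 10000, and Ptprc, Lyz2 and Cd74 had 0 UMIs in the 60 wells. Adipocyte genes, several of which accompany Fabp4 in fat, were at 0, 0.387 and 0 per 10000. Hemoglobin genes reached 173 per 10000 at 6 weeks because of 1 well, and over all 60 wells the level went from 80.0 to 1.26 without it. The calls without wells of over 100 hemoglobin UMIs were 44 higher and 55 lower against wells without Rgs5.

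No well was removed as a doublet. Scrublet, a program that scores wells against simulated mixtures, marked 3 of the 60 Rgs5-endothelial wells, all at 6 weeks, with 4 of 58 other Rgs5 wells and 6 of 385 wells without Rgs5. On the 6-week plate these were 3 of 25, 1 of 20 and 5 of 144 wells, with median scores of 0.0865, 0.0470 and 0.0567. On the mixed plate they were 0 of 35, 3 of 38 and 1 of 241, with median scores of 0.0553, 0.0764 and 0.0553. Mitochondrial genes took a median of 6.45% of the UMIs in the Rgs5-endothelial wells, 6.16% in the other Rgs5 wells and 4.67% in wells without Rgs5. Of the immediate early and heat shock genes, which can mark handling of tissue, 6 were tested and Jun was higher than in wells without Rgs5 (1.19 ± 0.29, edgeR adjusted p = 0.00729), and 0 were called against the other Rgs5 wells. The part of mixed wells, free RNA or handling in these results was not tested.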

How the data were processed

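Single Tomato+ periosteal cells from 3 pools of mice were sequenced by a plate form of Drop-seq on 2 plates. Reads were aligned by the authors to GRCm38 with STAR 2.5.4a, and the authors deposited raw UMI counts and read counts of each gene in each well. A total of 168 wells lacked a time point and stayed out. Genes with a row for only 1 plate were set to 0 on the other plate.

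Wells with 200 or more genes were kept. Levels are UMIs per 10000 over pooled wells. UMIs were summed by class and pool into 9 sums and fitted in edgeR 4.0.16 (R 4.3.3) with TMM factors, filterByExpr, a quasi-likelihood test and the pool as a block. The 12 rule genes stayed in library sizes but were not tested. Each SE is the size of the log2 difference divided by the square root of the F statistic of its quasi-likelihood test. Benjamini-Hochberg adjustment covered all 310 genes tested. The fit was tested on simulated data. Wells of a class share a pool and a plate, so the spread over 3 pools includes time, strain and plate and is not that of replicate animals. Clopper-Pearson and Poisson 95% intervals cover counting error only.

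Named genes were the rule genes, the called genes of 6 lists (endothelial outside the rule, pericyte, contractile, fatty acid uptake, basement membrane and vessel signaling) with abundant uncalled examples, the 10 largest changes per direction and contrast, and defining genes of the other lists, of which those with most bearing are given. H2-D1, B2m and the untested genes with few UMIs were added after their values were seen. Lists held 231 genes, 218 with a row, 4 of them under an older symbol. The 22 lists also covered osteoblast, chondrocyte, skeletal muscle and satellite cell genes, at 14.7, 0, 4.06 and 1.41 UMIs per 10000 in the Rgs5-endothelial wells. The members and lists were chosen with earlier results of these data known. Scrublet was run per plate in scanpy 1.11.5 with default settings. DESeq2 1.42.0 was an alternative. The result of 1 further list is not reported here.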

Additional observations from a re-analysis of the deposited data

Results flagged for a closer look

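H2-D1 was called higher in Rgs5-endothelial wells than in wells without Rgs5 (log2 difference 1.17), although its pools went in opposite directions. The difference was -1.44 UMIs per 10000 at 2 days, 12.3 at 6 weeks and 10.1 at 13 weeks. Whether the time points differ was not tested, since each is 1 pool.

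Wells under 200 genes took no part in the comparisons. Of these 97 wells, 5 had both an Rgs5 and an endothelial UMI, which is 5.15% (exact 95% interval 1.69 to 11.6), where a count of 0 would allow up to 3.09%. They were 0 of 11 wells at 2 days, 2 of 27 at 6 weeks and 3 of 59 at 13 weeks. Within a time point the share was not above what a count of 0 allows, 7.41% against 11.1% at 6 weeks and 5.08% against 5.08% at 13 weeks. It was not compared with a background and is given as a count only.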

How the results depend on the processing

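Against wells without Rgs5, 92 genes were called (40 higher, 52 lower). Without a filter on low counts there were 358 of 16138 tested (310 lower), with wells thinned to 300 UMIs 20 of 60 (9 and 11), and with read counts 48 of 2429 (17 and 31). With 1 pool left out, 64 to 118 were called, 24 to 57 higher and 39 to 61 lower. Each of these alternatives but the fit without the 13-week pool also changed how many genes were tested.

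Against the other Rgs5 wells, 38 genes were called (16 and 22). Thinning gave 5 (4 and 1), read counts 12 (7 and 5), of which 9 were among the 38, no filter 31 (20 and 11), of which 22 were, no pool block 18 (8 and 10), and 2 or more Rgs5 UMIs 2 (2 and 0, an alternative added after the data were seen). With 1 pool left out, 3 to 39 were called, 1 to 19 higher and 2 to 20 lower. The causes were not tested. DESeq2 called 84 and 32 genes in the 2 comparisons.

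For named genes, Acta2 against wells without Rgs5 became -0.38 without a filter (edgeR adjusted p = 0.935) and -0.088 with read counts (adjusted p = 0.997), and Col4a2 became -0.17 without a filter (adjusted p = 0.935). Over all alternatives, named genes called against the other Rgs5 wells lost the call 84 times and held it 177 times, and those called against wells without Rgs5 lost it 21 times, held it 304 times and turned 1 time.

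With the rule applied at 300 UMIs, 34 wells were chosen, 7.04% of all, with 5.71%, 6.59% and 9.52% in the 2-day, 6-week and 13-week pools. Without thinning, a rule that asks for 2 or more endothelial UMIs chose 8.55% of the wells. The share of chosen wells with Fabp4 was 88.1% at 500 UMIs, and unthinned shares were 65.0% for Cd36, 58.3% for Gpihbp1, 68.3% for Ly6c1 (61.9% at 500 UMIs), 40.0% for Aqp1 and 40.0% for Pdgfrb. With 70% of UMIs drawn for the rule, an endothelial UMI recurred in 60.0% of the chosen wells and 9.18% of the other Rgs5 wells. As a mean over wells, the pericyte list was at 47.6 and the tendon list at 20.5 UMIs per 10000. A median of 712 UMIs a well limits all low genes.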
